A study of Oryza sativa Japonica Group with 18 samples.

Results

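In rice leaves, 40 genes were lower after 12 h at 4 °C in wild type and higher after the same cold in both transgenic lines of OsERF096, which belongs to the ethylene response factors. They were chosen by measured values: a mean cold minus control difference of at most -1 on the log2(FPKM + 1) scale in wild type (WT), of at least 0.5 in the overexpression line (OsERF096-OX, here OX) and of at least 0.5 in the RNA interference line (OsERF096-RNAi, here RNAi). A mean of at least 5 FPKM (fragments scaled to gene length and library total) in 1 of the 6 groups was also required. The choice was made among 35679 locus rows of a table of 38610 genes, and 1 further locus that met the limits was left out by the rule. All responses to cold within a line are therefore given as descriptions, with no test.

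The libraries came from leaves at the 3-leaf stage, 3 each from WT, OX and RNAi plants under normal growth (control) and after the cold, 18 in all. The japonica background is shared by all groups, and neither the promoters of the constructs nor the number of independent lines is given in the labels. Whether replicates are separate plants is not stated in the labels, and p-values then cover only the spread between libraries, which may be technical. The target gene OsERF096 was not analysed here, and the OX and RNAi labels were not checked against it. Leaf identity was clear, with photosynthesis markers summing to between 19295 and 50461 FPKM per library and the shoot meristem gene OSH1 listed at 0 in every library. Read depth is unknown, and between 19597 and 20939 genes per library reached 1 FPKM. One library stood apart: in WT control replicate 2 the 4 secondary wall markers summed to 12.5 FPKM, against 211 in replicate 1 and 279 in replicate 3.

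Plants sense cold within minutes and turn down much of their growth programme while stress hormone pathways are engaged. Cytokinin, a growth hormone, is broken down by cytokinin oxidases, and its signal is damped by type-A response regulators. Ethylene is perceived at the endoplasmic reticulum, and its signal passes through EIN2 to transcription factors, of which the ethylene response factors form one of the downstream families. Only 5 of the 40 genes could be given a checked name, and the other 35 stand under their locus IDs with no function assigned. No sequences are shown.

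The median response of the 40 genes was -1.26 in WT (range -2.62 to -1.03), 0.68 in OX (0.52 to 2.60) and 1.41 in RNAi (0.53 to 3.96), all on the log2(FPKM + 1) scale. Over all 23175 genes tested the medians were -0.22, -0.18 and -0.16. Meeting the limits in all 3 lines was rare. Of the 15560 loci with a group mean of at least 5 FPKM, 2193 were at or below the WT limit. Of these 2193, 275 also met the RNAi limit and 49 the OX limit, so fewer met the OX limit. These counts include the locus left out by the rule.

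**Figure D1:**
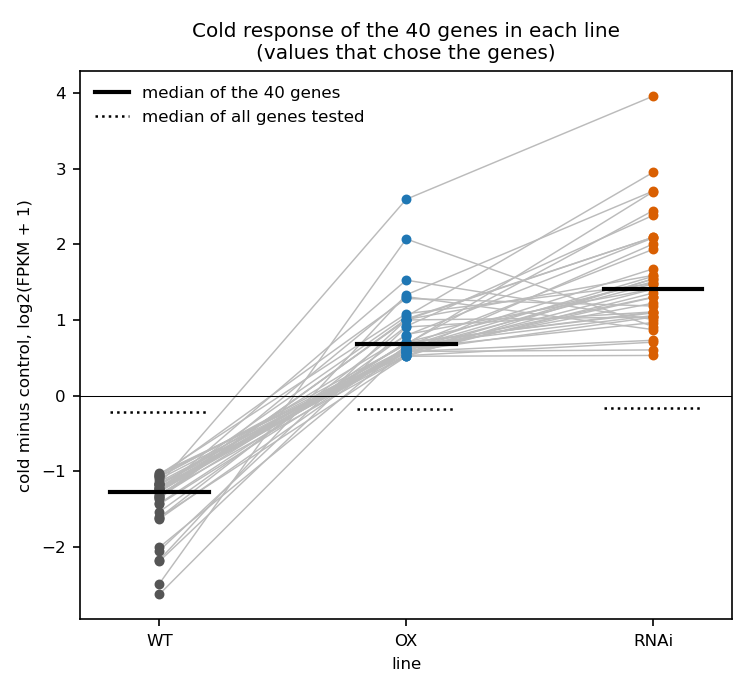
Cold minus control difference in mean log2(FPKM + 1) for each of the 40 genes (points joined by lines) in WT, OX and RNAi, with the median of the 40 genes (solid bars) and of all genes tested (dotted bars). The medians were -1.26, 0.68 and 1.41, and the spread was widest in RNAi, but the separation itself follows from how the genes were chosen.

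The cold and control libraries did not overlap in WT for 35 of the 40 genes, where 37.6% of all tested genes lay apart in that direction. In OX the libraries lay apart for 12 genes (16.4% of tested genes were apart and higher), and in RNAi for 32 (20.6%). Since these contrasts chose the genes, nothing is read from those shares. The libraries lay apart in these directions in all 3 lines for 9 genes (1.1% of tested genes), from which again nothing is read, and 3 of the 40 had a library listed at 0.

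The mean log2(FPKM + 1) of the 40 genes per library shows how the groups were ordered. It was 3.44, 3.82 and 3.25 in the WT control libraries and 2.04, 1.99 and 2.25 after cold. In OX it was 2.97, 2.41 and 2.57 in control and 3.54, 3.67 and 3.32 after cold. In RNAi it was 2.74, 2.11 and 2.33 in control and 3.85, 3.92 and 4.04 after cold. All WT control libraries thus lay above all OX and RNAi control libraries, and all WT cold libraries lay below all cold libraries of the transgenic lines. The same libraries chose the genes, so this order follows in part from the choice and is given as a description. RNAi cold was the group with the highest mean for 23 genes and WT cold the one with the lowest for 21. Of the 2 root markers, LSI2 was listed at 0 in every library and LSI1, a silicon transporter gene, stood at 1.40 to 14.6 FPKM in WT control, 0.575 to 0.821 in WT cold, 1.54 to 2.39 in RNAi control and 2.54 to 4.22 in RNAi cold. LSI1 overlapped between control and cold in OX (3.17 to 13.7 and 1.40 to 7.97 FPKM), and the part of root-marker RNA in the responses was not tested. In bulk leaf tissue, fewer cells of a type and less RNA per cell cannot be told apart.

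**Figure D2:**
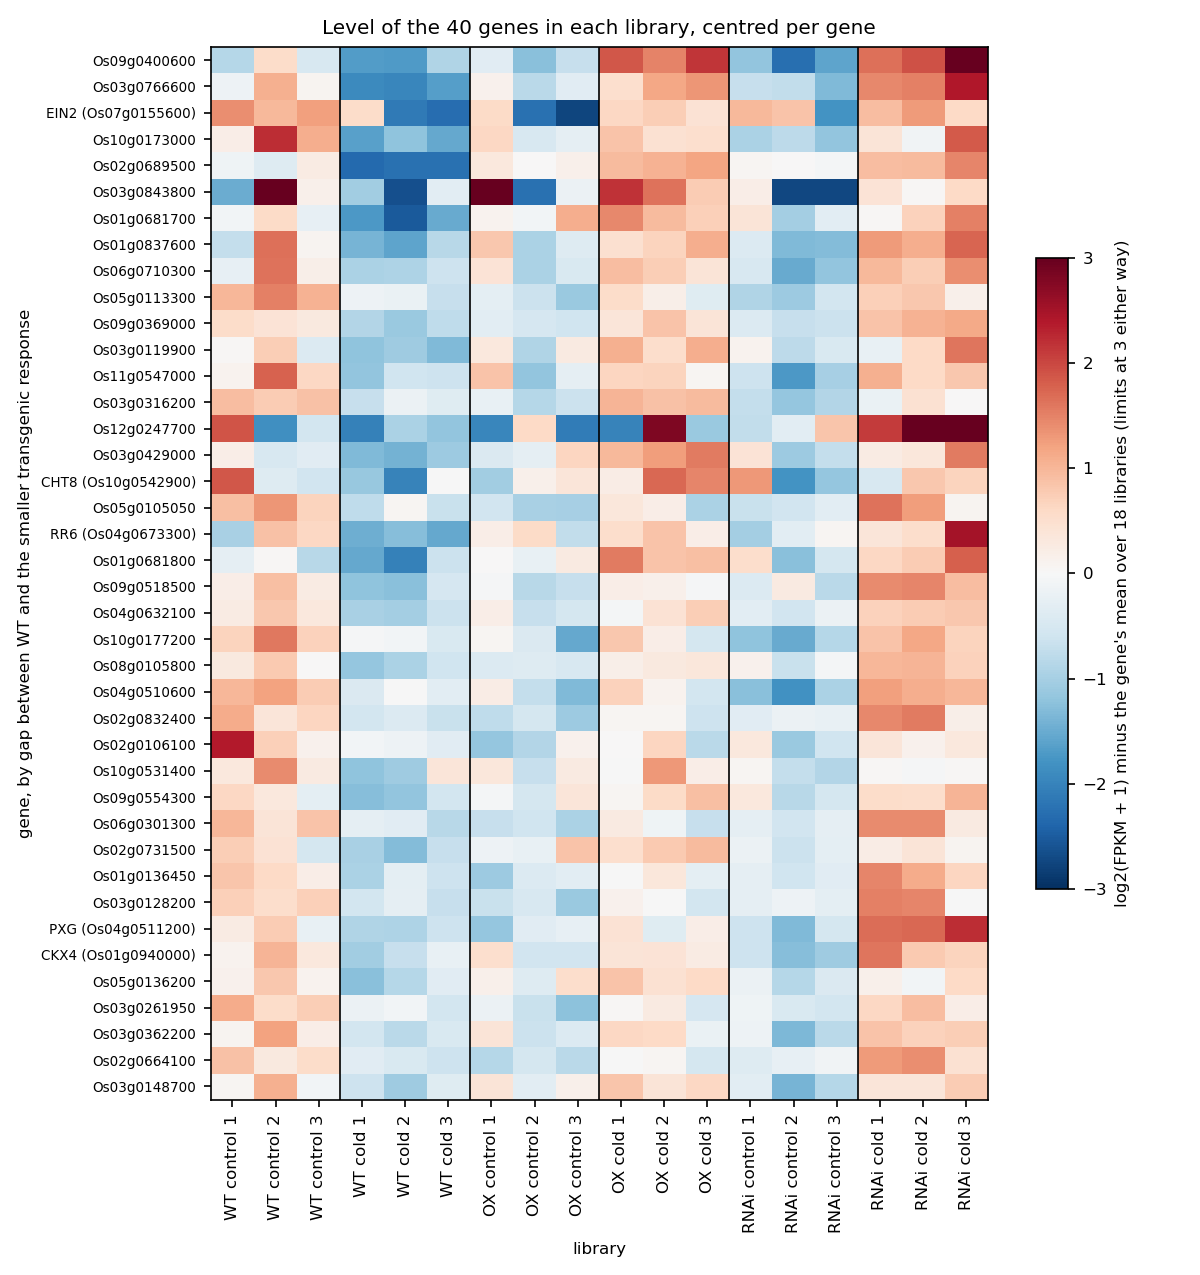
Level of the 40 genes (rows, ordered by the gap between the WT response and the smaller transgenic response) in each of the 18 libraries (columns), as log2(FPKM + 1) minus the mean of the gene, with colours limited at 3 either way. WT control, OX cold and RNAi cold are mostly red, and WT cold, OX control and RNAi control mostly blue, with single red or blue libraries standing out in EIN2, Os03g0843800 and Os12g0247700. The colours of the groups follow in part from how the genes were chosen.

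The opposite responses went with differences between the lines in both conditions. Before cold, OX was below WT for 36 of 40 genes, with a median difference of -0.82, and RNAi was below WT for 38, with a median of -1.10. After cold, both lines were above WT for all 40 genes, with medians of 1.29 in OX and 1.68 in RNAi. The corresponding medians over all tested genes were 0.02 and -0.06 before cold and 0.08 and 0.02 after it. The comparisons of OX and of RNAi with WT share the same WT libraries, which also chose the genes.

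The libraries of OX and WT lay apart before cold for 17 genes (10.4% of tested genes lay apart and lower in OX) and after cold for 26 (24.7% apart and higher). Those of RNAi and WT lay apart before cold for 24 genes (16.7% apart and lower) and after cold for 37 (24.8% apart and higher). Nothing is read from these shares, since the same libraries chose the genes. For 23 genes the distance from WT was larger after cold than before it in both lines, and for 7 it was larger before cold in both. Os02g0689500 belonged to the first kind: its OX minus WT difference was 0.24 before cold and 3.33 after it, and its RNAi minus WT difference was 0.09 and 3.38. Os03g0316200 belonged to the second kind by these differences, with -1.43 before cold and 1.36 after it in OX, and -1.77 and 0.51 in RNAi.

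CKX4 (Os01g0940000) encodes a cytokinin oxidase, an enzyme that breaks down cytokinin. It stood at 4.46, 9.33 and 5.28 FPKM in WT control and at 1.45, 2.12 and 3.35 in WT cold. In OX it stood at 6.14, 2.37 and 2.40 in control and at 5.65, 5.77 and 5.03 in cold. In RNAi it stood at 2.30, 1.07 and 1.41 in control and at 14.3, 7.70 and 7.04 in cold. The control and cold libraries were apart in WT and in RNAi and overlapped in OX, where control replicate 1 was the highest of the 6. The responses were -1.14 in WT, 0.58 in OX and 2.01 in RNAi, and the one in WT was above -1 without WT control replicate 2.

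RR6 (Os04g0673300) encodes a type-A response regulator, a damper of the cytokinin signal. It stood at 1.98, 9.68 and 8.004 FPKM in WT control and at 1.11, 1.39 and 1.01 in WT cold. OX values were 5.65, 7.71 and 2.50 in control and 7.44, 9.59 and 5.69 in cold, and these overlapped. RNAi values were 1.87, 3.70 and 5.06 in control and 6.44, 7.35 and 31.7 in cold, with cold replicate 3 far above the rest. RR6 was the gene closest to the limits, its OX response of 0.52 lying 0.020 inside.

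Most genes of both cytokinin lists did not meet the limits, as was so for nearly all of the 15560 loci with a group mean of at least 5 FPKM. Of the 7 cytokinin oxidase genes with checked names, 4 passed the low-value filter and 1 met the limits, and of the 8 type-A regulators 6 passed and 1 met them. The nearest of the remaining regulators was RR9, whose responses were -1.99 in WT, 0.19 in OX and 1.24 in RNAi. CKX5, the nearest of the oxidases, gave -0.56, 0.42 and 0.34. None of the 4 oxidases and 6 regulators tested was called between RNAi and OX after cold or before it. Over all tested genes 5.94% were called after cold and 1.73% before it, so nothing is read from this.

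EIN2 (Os07g0155600) encodes the membrane protein that relays the ethylene signal. It stood at 16.64, 12.3 and 14.9 FPKM in WT control, and at 8.93, 0.558 and 0.385 in WT cold. In OX control it was 8.98, 0.440 and 0, and in OX cold 9.40, 10.3 and 8.07. In RNAi control it was 12.3, 11.2 and 0.955, and in RNAi cold 11.8, 15.3 and 9.18. Values near 0 occurred in 5 of the 18 libraries, in 3 different groups, and within those groups 1 or 2 libraries stayed near the level seen elsewhere. Its large responses of -2.48 in WT and 2.07 in OX thus rest on the 2 libraries at or near 0 in one group of each, and the OX and RNAi libraries overlapped. The other 5 ethylene genes measured, all of which passed the filter, did not meet the limits, the nearest being the receptor gene ERS1 at -0.94, 0.03 and 0.37.

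PXG (Os04g0511200) encodes a peroxygenase of the caleosin family, which are calcium-binding proteins of lipid droplets. It stood at 2.71, 4.26 and 1.66 FPKM in WT control and at 0.679, 0.647 and 1.02 in WT cold. OX values were 0.394, 1.45 and 1.64 in control and 3.20, 1.43 and 2.61 in cold, and these overlapped. RNAi values were 1.04, 0.242 and 1.18 in control and 8.99, 9.30 and 13.6 in cold. The RNAi cold libraries were the 3 highest of all 18. The WT response was -1.07, and it was above -1 without WT control replicate 2. The OX response was 0.68, and PXG also missed the limits without OX control replicate 1.

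CHT8 (Os10g0542900) encodes a chitinase, an enzyme of cell wall chitin breakdown used in defence. It stood at 16.3, 2.64 and 2.20 FPKM in WT control and at 1.14, 0.178 and 3.71 in WT cold. OX values were 1.31, 4.25 and 5.07 in control and 4.51, 14.5 and 12.1 in cold, and RNAi values 10.7, 0.369 and 1.13 in control and 2.39, 7.26 and 6.51 in cold. Control and cold overlapped in every line, and a single high library set the mean of WT control and of RNAi control.

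**Figure D3:**
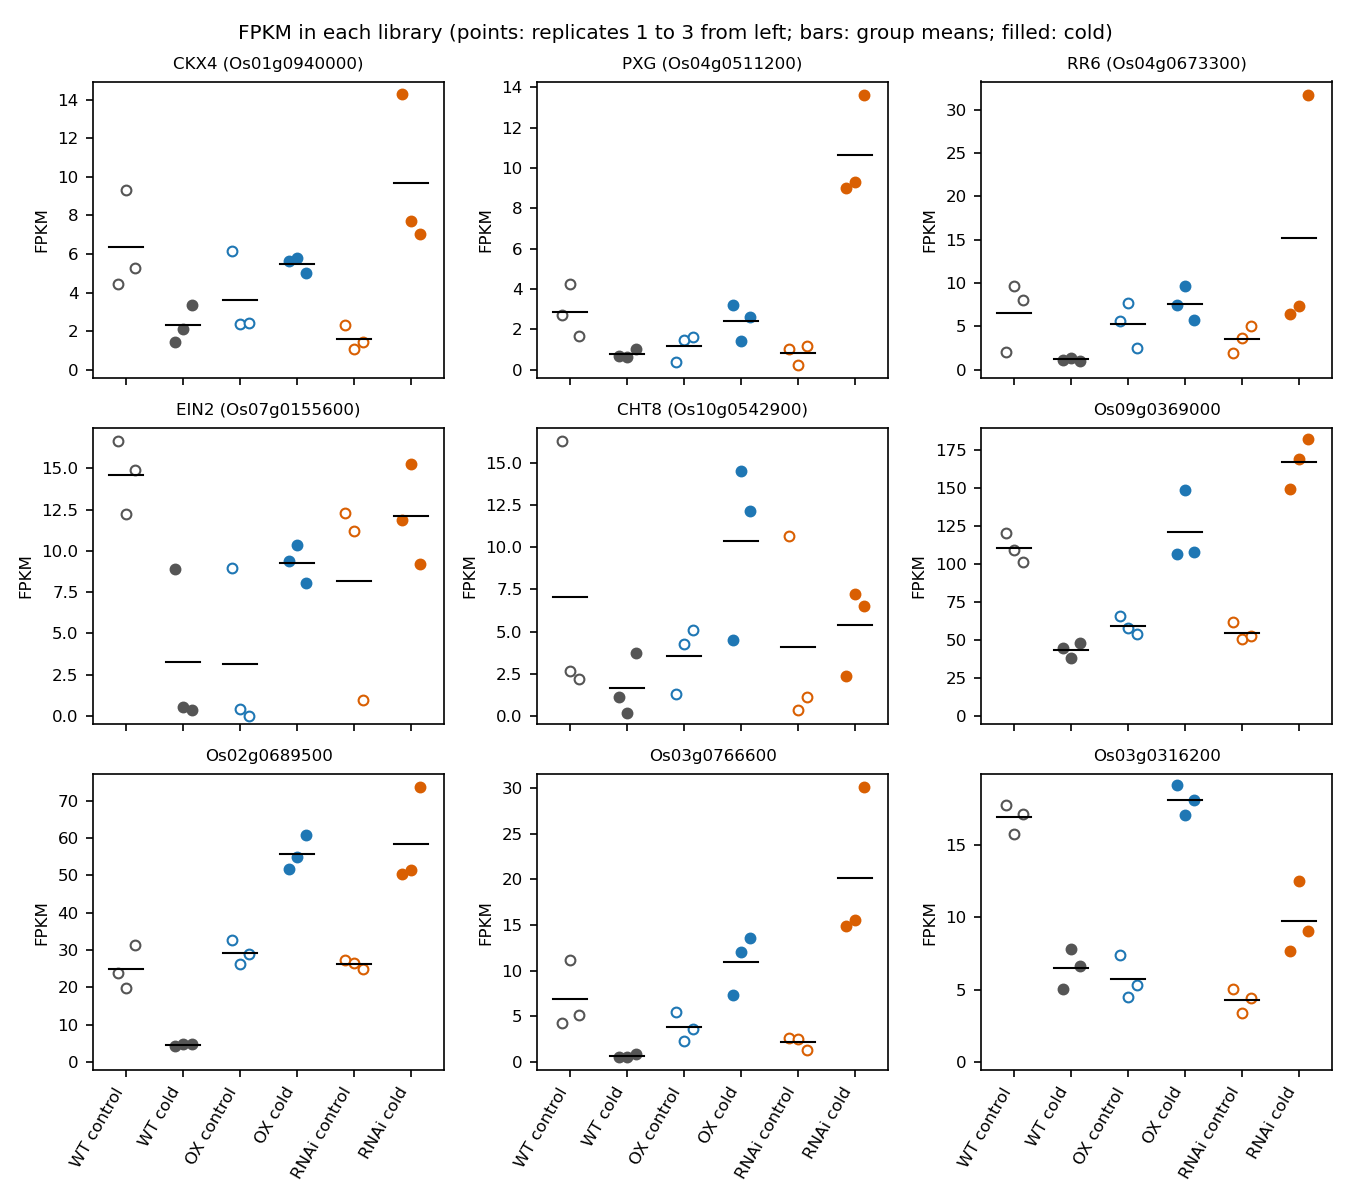
FPKM of the 5 named genes and of 4 loci in each library, by group (open points control, filled points cold, bars group means). Os09g0369000, Os02g0689500 and Os03g0316200 vary little within groups, while EIN2 and CHT8 show single libraries far from their group.

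Os09g0369000 had the highest level of the 40, with a mean of 92.7 FPKM over 18 libraries against a median of 8.01 for the group and 7.34 for all tested genes. It stood at 120, 109 and 102 FPKM in WT control and at 44.4, 37.8 and 48.2 in cold. OX values were 65.7, 58.1 and 53.9 in control and 107, 149 and 108 in cold, and RNAi values 61.9, 50.3 and 52.3 in control and 149, 169 and 183 in cold. Within each line the control and cold libraries were apart. The next highest means were those of Os06g0710300 at 43.2, Os02g0689500 at 33.3, Os03g0429000 at 26.8 and Os01g0837600 at 24.9 FPKM.

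Os02g0689500 differed between the lines almost only after cold. It stood at 23.9, 19.8 and 31.3 FPKM in WT control, at 32.8, 26.3 and 28.9 in OX control and at 27.3, 26.5 and 24.9 in RNAi control, and these ranges overlapped. After cold it was 4.38, 4.75 and 4.76 in WT, 51.7, 55.0 and 60.8 in OX, and 50.5, 51.4 and 73.7 in RNAi. The RNAi minus OX difference after cold was 0.05 ± 0.16 (SE), with an adjusted p of 0.903 in limma.

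Os09g0400600 had the largest gap between the WT response and the smaller of the transgenic responses, 3.76. It stood at 3.76, 11.7 and 5.20 FPKM in WT control and at 1.71, 1.66 and 3.59 in cold. The cold libraries held 30.5, 23.1 and 37.2 in OX and 25.9, 31.6 and 83.4 in RNAi, and the control libraries 5.81, 2.60 and 4.33 in OX and 2.77, 0.808 and 1.89 in RNAi. Both transgenic lines were thus far above WT control after cold. Its WT response was above -1 when WT control replicate 2 was left out.

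Os03g0766600 was next, with a gap of 3.50 and the widest margin to the limits of the 40. It stood at 4.23, 11.2 and 5.19 FPKM in WT control and at 0.551, 0.507 and 0.859 in cold, while the cold libraries held 7.35, 12.1 and 13.6 in OX and 14.9, 15.6 and 30.1 in RNAi. Its control values were 5.43, 2.36 and 3.60 in OX and 2.64, 2.50 and 1.32 in RNAi. Control and cold were apart in all 3 lines, in each of which the lowest value of one group lay above the highest of the other. Os10g0173000 had a gap of 3.27 and the lowest WT response of the 40, -2.62, with WT control at 6.22, 28.0 and 12.3 FPKM.

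Some of the loci lie close together. Os01g0681700 and Os01g0681800 are consecutive rows of the table. Os01g0681700 stood at 11.4, 18.3 and 10.0 FPKM in WT control, at 2.96, 1.27 and 3.56 in WT cold, at 34.1, 24.0 and 20.3 in OX cold and at 12.4, 19.9 and 36.0 in RNAi cold. Its control libraries held 12.9, 11.2 and 26.6 in OX and 16.0, 5.42 and 9.48 in RNAi. Control and cold thus overlapped in both transgenic lines and were apart in WT. Os01g0681800 stood at 2.71, 3.60 and 1.52 in WT control, at 0.545, 0.110 and 1.89 in WT cold, at 12.2, 7.15 and 7.44 in OX cold and at 5.98, 6.66 and 14.5 in RNAi cold. Its control libraries held 3.57, 2.84 and 4.43 in OX and 5.45, 0.898 and 2.13 in RNAi. Here control and cold overlapped in WT and were apart in OX and RNAi. With no counting method stated in the sources used, reads shared between the neighbours cannot be set apart. PXG and Os04g0510600 had 2 rows between them, and Os10g0173000 and Os10g0177200 had 12. Chromosome 3 held 9 of the 40 genes, 22.5% against 13.5% of the tested loci.

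The difference between RNAi and OX within a condition was not itself limited by the rule, but it is not independent of the choice. Its change from control to cold equals the RNAi response minus the OX response, and the rule limited both responses. The response was larger in RNAi than in OX for 36 of the 40 genes (52.3% of tested genes). Calls, medians and p-values of this contrast are therefore given as descriptions of the 40. After cold, 7 of the 40 genes were higher in RNAi than in OX (17.5% of the 40, where 2.19% of tested genes were called higher) and 1 was lower (2.5%, against 3.75%), 8 in either direction (5.94% of tested genes), by limma with Benjamini-Hochberg adjustment over all tested genes at 0.05. Of the 40 genes 3 passed the minimum of 5 FPKM only through RNAi cold, and 2 of these, PXG and Os01g0136450, are among the 7, so the share of 17.5% is in part fixed by how the genes were chosen and is given as a description. An unadjusted p under 0.05 was found for 15 of the 40 (37.5%, against 21.9% of tested genes). The median difference of the 40 genes was 0.43, with 29 above 0 (42.3% of tested genes were above 0), and that of all tested genes -0.06. Before cold none of the 40 was called (1.73% of tested genes were called in either direction, 0.841% higher and 0.889% lower in RNAi), and 2 had an unadjusted p under 0.05 (5%, against 15% of tested genes). Of the 40, 28 lay below 0 and 12 above it before cold, where 39.2% of tested genes lay above 0. The median before cold was -0.35, against -0.07 for all tested genes. That median rests on single libraries: it was -0.11 without RNAi control replicate 2 and -0.18 without OX control replicate 3. The 4 secondary wall markers, none of which was called, summed to between 30.5 and 83.0 FPKM in the RNAi cold libraries and between 131 and 234 in the OX cold ones, and their part in the difference was not tested.

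PXG had the largest called difference, 1.78 ± 0.31 (SE) on the log2(FPKM + 1) scale, with an adjusted p of 0.00300 in limma. Its group means were below 5 FPKM except in RNAi cold (10.6 FPKM), so it is among the 40 only through the group in which it was high here. Os02g0832400 was higher in RNAi by 1.23 ± 0.30 (adjusted p = 0.0282), Os06g0301300 by 1.22 ± 0.30 (adjusted p = 0.0276), Os02g0664100 by 1.21 ± 0.23 (adjusted p = 0.00723) and Os09g0518500 by 1.17 ± 0.30 (adjusted p = 0.0316), all in limma. The other genes called higher were Os03g0128200 and Os01g0136450, at 1.13 and 1.06, named here because they complete the 7, and Os01g0136450 likewise reached 5 FPKM only in RNAi cold (5.92). For Os06g0301300 and Os03g0128200 the RNAi cold and OX cold libraries overlapped, and for the rest of the 7 they were apart. In Os02g0664100 the RNAi cold libraries held 10.3, 11.3 and 5.41 FPKM, and the OX cold libraries 3.60, 3.87 and 2.24. RNAi cold replicate 3 was the lowest of its group in Os02g0664100, and also in Os02g0832400, where the group held 22.7, 24.7 and 8.89 FPKM against 8.13, 8.03 and 4.65 in OX.

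Over the 40 genes RNAi cold replicate 3 was the lowest of its 3 libraries for 15 and the highest for 20. RNAi cold replicate 3 was the lowest also in Os06g0301300, Os03g0128200, Os09g0518500 and Os01g0136450, and the highest in PXG. Without OX cold replicate 3 or RNAi cold replicate 1, 2 of the 40 genes were called, and without RNAi cold replicate 2, 3 were, in place of 8. Calls over all genes were also fewer in these fits, at 461, 476 and 627 in the same order, in place of 1377. PXG was called under each of the 15 alternatives run for this contrast, with the highest adjusted p at 0.0326 in limma. It is among the 40 only through RNAi cold, so nothing is read from its staying called. Os02g0664100 was called under every leave-out of 1 of the compared libraries but not when only those 6 were fitted (adjusted p = 0.0522 in limma), while Os02g0832400, Os06g0301300, Os09g0518500, Os03g0128200 and Os01g0136450 lost their calls without OX cold replicate 3 and without RNAi cold replicate 1 or 2, with adjusted p up to 0.202 in limma.

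Os03g0316200 was the one gene lower in RNAi than in OX after cold, by -0.86 ± 0.19 (SE) with an adjusted p of 0.0178 in limma. It stood at 17.8, 15.7 and 17.1 FPKM in WT control and at 5.07, 7.80 and 6.65 in WT cold. OX values were 7.39, 4.48 and 5.28 in control and 19.1, 17.0 and 18.103 in cold. RNAi values were 5.04, 3.40 and 4.40 in control and 7.65, 12.5 and 9.01 in cold. OX cold thus lay in or above the range of WT control, while RNAi cold stayed below it. The call was lost without OX cold replicate 3 (adjusted p = 0.0681) and without RNAi cold replicate 1 (adjusted p = 0.0972), both in limma.

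**Figure D4:**
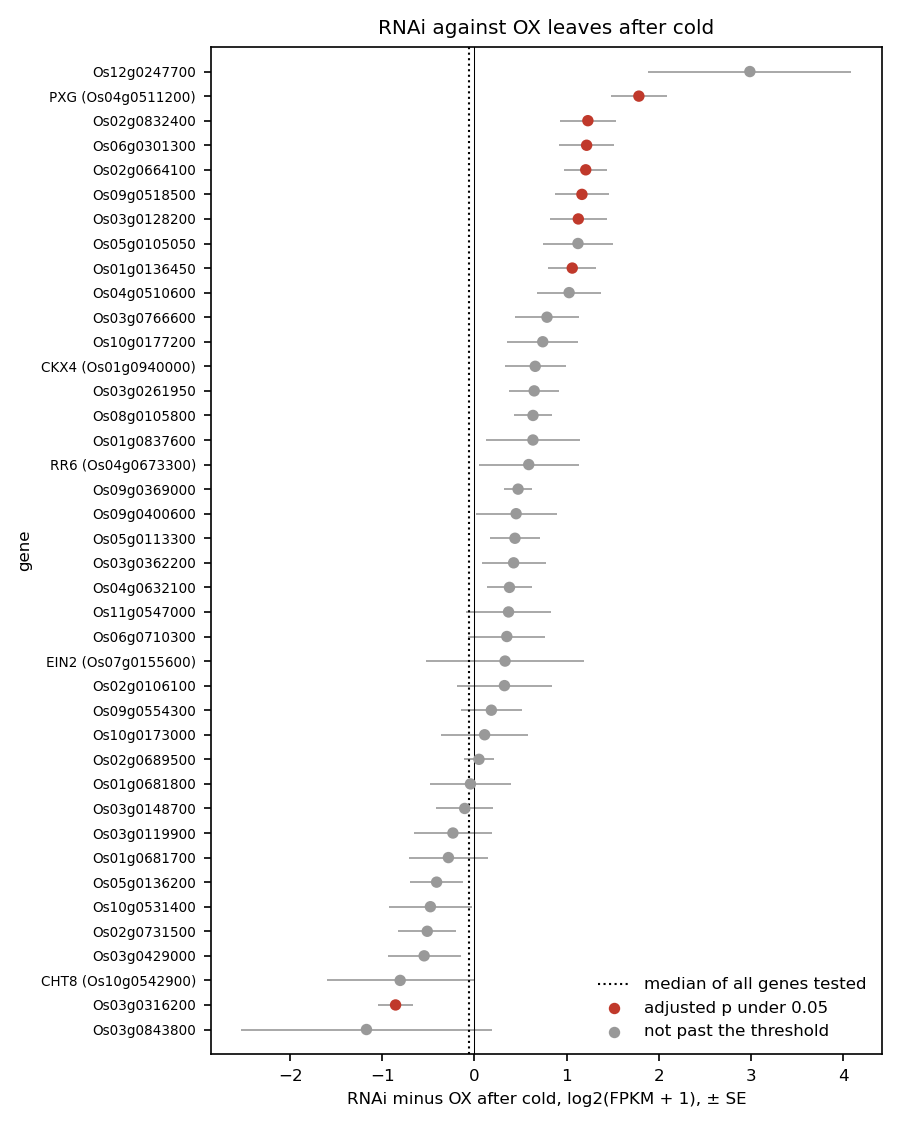
RNAi minus OX difference after cold in log2(FPKM + 1), with its SE, for each of the 40 genes, and the median of all genes tested (dotted line). Red points passed an adjusted p of 0.05, 7 above 0 and Os03g0316200 below; Os12g0247700 has the largest difference but a wide error.

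Os03g0843800 and Os12g0247700, picked out after their values were seen, varied widely within groups. Os12g0247700 held 0.0871, 5.45 and 0 FPKM in OX control and 0.0679, 28.5 and 0.968 in OX cold, so that its OX response of 1.05 rests on cold replicate 2. In RNAi it held 1.56, 2.42 and 6.60 in control and 17.3, 33.1 and 48.5 in cold, which were apart. Os03g0843800 held 101 FPKM in OX control replicate 1 and 0.397 and 4.86 in the rest of that group, and its control and cold libraries overlapped in all 3 lines.

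Whether a gene met the limits depended on single libraries. Of the 40, 7 met them whichever of the 18 libraries was left out, namely Os02g0689500, Os03g0119900, Os03g0316200, Os03g0766600, Os05g0113300, Os08g0105800 and Os09g0369000. The remaining 33 dropped out at least once. WT control replicate 2 was the highest of its group for 24 of the 40 genes, and at least 2 times the higher of the other WT control libraries for 10. Without it, 41 genes met the limits, 28 of them among the 40, and the median WT response of the 40 was -1.17. The low secondary wall marker sum of that library moved with its high values in these genes, and its part in the result was not tested.

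**Figure D5:**
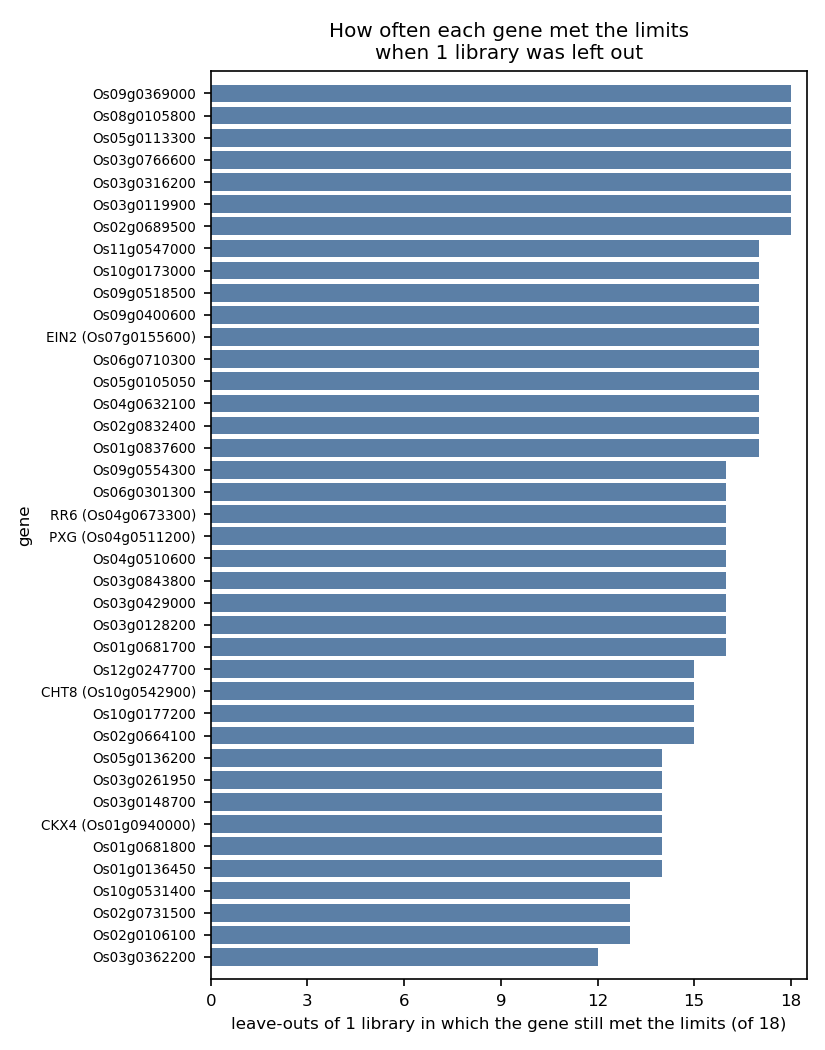
Number of the 18 leave-outs of 1 library (x axis) in which each of the 40 genes (y axis) still met the limits. They were met in all 18 by 7 genes, and the fewest was 12, for Os03g0362200.

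Many genes lay just outside. The 3 genes that came closest without meeting the limits were Os08g0351300 (RNAi response 0.498), Os05g0100500 (WT response -0.997) and Os04g0691366 (WT response -0.997). The 3 just inside were RR6, Os10g0531400 and Os03g0148700, with margins of 0.020, 0.023 and 0.026.

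Genes of the stress hormone abscisic acid, which closes stomata and turns on protective genes, were set beside the 40. The 40 came from 15560 loci with a group mean of at least 5 FPKM. Nothing is therefore read from short lists of which no gene met the limits, here or below. Among the listed clade A PP2C phosphatases, which hold back that signal, 7 of 8 passed the filter and none met the limits. PP2C50 came nearest, at -0.86 in WT, 0.29 in OX and 1.16 in RNAi, and PP2C49 next at -0.75, 0.46 and 1.13. None of the 13 genes for a receptor, SnRK2 kinases (SAPK1 to SAPK10) and bZIP factors met the limits. Of these SAPK4 was lower in RNAi than in OX after cold, by -0.94 ± 0.19 (SE, adjusted p = 0.0085 in limma). Over all tested genes 3.75% were called lower. Of the 5 genes of abscisic acid synthesis and breakdown, ABA8OX2 came nearest at -1.92, 0.14 and 0.80.

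Some of the listed protective genes came near the limits, and others did not. The dehydrin gene RAB21 met all 3 response limits, at -1.45, 0.89 and 1.86, and missed only the minimum of 5 FPKM. The transcription factor gene NAC5 gave -0.95, 2.92 and 3.87, and the proline synthesis gene P5CS2 gave -1.64, 0.39 and 1.61. P5CS2 also missed the minimum, with its highest group mean at 3.45 FPKM in WT control. From the same lists, NAC3, NAC4 and NAC6 rose in WT, by 3.85, 4.00 and 3.58. The proline and trehalose genes P5CS1, TPP1 and TPP2 rose in WT too. None of the 4 stress NAC genes, 4 proline and trehalose genes, 4 chlorophyll breakdown genes or 12 small heat shock genes listed met the limits. Of the small heat shock genes only 6 passed the filter. Of the 6 tested genes in the dehydrin, LEA and LTI6 list, LTI6A was lower in RNAi than in OX after cold by -1.04 ± 0.21 (SE, adjusted p = 0.00847 in limma). Of the 4 chlorophyll breakdown genes RCCR1 was lower by -0.66 ± 0.16 (adjusted p = 0.0242 in limma), where 3.75% of all tested genes were called lower. The calls were lost for SAPK4 without OX cold replicate 2 (adjusted p = 0.0510), for LTI6A without RNAi cold replicate 1 (adjusted p = 0.0528) and for RCCR1 under 4 of the 6 leave-outs, with adjusted p up to 0.0983 in limma.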

How the data were processed

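The authors deposited 1 table of FPKM values for 38610 genes in 18 libraries, of which 35679 are locus IDs and 2931 numbered new genes. The submitters' processing notes name Bowtie 0.12.2. Build, annotation, counting and filters are, for these values, not given in the sources used. Groups and replicate numbers came from the sample titles. FPKM carries no read totals, so depth is unknown and no counting interval is given.

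Values were analysed as log2(FPKM + 1), a pseudocount that understates changes of low genes, with no further normalization. The 40 genes and the gene lists were chosen with earlier results of these data known, and the cytokinin, ethylene, chitinase and peroxygenase lists were added after the 40 had been seen. The genes tested were the 23175 that reached 1 FPKM in 3 or more libraries, including all 40. With limma 3.58.1 under R 4.3.3, a model of 6 group means over 18 libraries, with the variance following the mean level, was fitted for RNAi minus OX in each condition, with Benjamini-Hochberg adjustment at 0.05. On simulated data with the 23175 genes, changes were planted only in genes with a mean log2(FPKM + 1) above 2 over the compared groups. True log2 changes of 2 were found for 93% of these genes after cold and 92% in control. Changes of 1 were found for 53% and 61%, with 9 and 12 false calls. Recovery for lower genes was not measured.

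The table pairs IDs with no names. Of 99 name and locus pairs written from background knowledge, 92 carried a name held by just 1 reference gene, on that chromosome, in assembly ASM3414082v1, and 91 of these followed locus order. Genes named were members with a checked name, the 5 with the highest mean, the 5 with the largest gap, up to 5 called in each direction, 3 just inside and 3 just outside, and neighbours. Others are marked as chosen after their values were seen, or complete a count. The 7 genes that met the limits in every leave-out were also named after their values were seen. Alternatives were other pseudocounts, filters, scalings, no variance trend, a replicate block, fits of the compared groups alone and leaving out each library.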

Additional observations from a re-analysis of the deposited data

How the results depend on the processing

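The count of genes that met the limits was 40 and moved to 90 with a pseudocount of 0.1; without 1 library each it ran from 31 (OX control replicate 2) to 77 (OX control replicate 1). Of the 40, 22 met the limits after median-ratio scaling and 23 after quantile normalization. For RNAi minus OX after cold, the calls among the 40 went from 8 to 4 when only the 6 compared libraries were fitted, and from 2 to 9 when 1 of those was left out; over all genes they ran from 461 to 1642 in those leave-outs, against 1377. Before cold, the calls over all genes went from 401 to 231 with a minimum mean of 5 FPKM and to 236 with only the 6 compared libraries, and from 269 to 1214 in the leave-outs, while those among the 40 stayed at 0. The cause was not tested. No result changed sign. Whether same-numbered libraries are paired is not given in the labels. Correlations of their deviations went down to -0.595 over all groups. They were 0.0779, 0.189 and 0.157 between OX cold and RNAi cold, each above those of other numbers. The same held between OX control and OX cold (0.202, 0.0863 and 0.0854) and between OX control and RNAi cold (0.165, 0.174 and 0.234). Between WT control and WT cold each lay below the highest of other numbers. Between OX control and RNAi control they were 0.0819, 0.409 and -0.231. With a replicate block 8 of the 40 and 1128 genes in all were called after cold, and 0 and 360 before it. Unknown depth limits what can be said of genes near 0 FPKM.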

Other observations

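The opposite pattern was as frequent. With the limits mirrored (at least 1 in WT and at most -0.5 in both OX and RNAi), 39 loci met them, against 40 here. One numbered new gene, Oryza_sativa_newGene_3689, also met the limits of the 40 genes, with group means of 9.01 FPKM in WT control, 3.92 in WT cold, 2.37 in OX control, 7.99 in OX cold, 3.57 in RNAi control and 14.95 in RNAi cold. Its responses were -1.02, 1.42 and 1.72.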
